A study of Saccharomyces cerevisiae BY4741 with 16 samples.

Results

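The lower glycolysis genes of budding yeast, Saccharomyces cerevisiae, were followed in 2 histone marks after rapamycin. In the anchor-away strain used, rapamycin is meant to take RNA polymerase II (RNAPII) out of the nucleus, which is not measured here. The set is 10 genes chosen by name for their enzyme step, FBA1 (YKL060C), TPI1 (YDR050C), TDH1 (YJL052W), TDH2 (YJR009C), TDH3 (YGR192C), PGK1 (YCR012W), GPM1 (YKL152C), ENO1 (YGR254W), ENO2 (YHR174W) and CDC19 (YAL038W), out of 5218 genes with values. All 10 had values in both marks at all 4 times. At 60 min, trimethylation of histone H3 at lysine 36 (H3K36me3) stood at a median of 74.9% of its 0 min level over these 10 genes, against 63.9% for the median gene of the genome. The 13 genes of hexose uptake and the upper pathway were at 75.4%, and 8 pyruvate decarboxylase and alcohol dehydrogenase genes at 77.2%. As deposited, H3K36me3 was higher at 60 than at 20 min at 7 of the 10 genes, against 20.6% of all genes. TDH3 and FBA1 had the highest changes of the set in trimethylation at lysine 4 (H3K4me3).

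The cells were BY4741 anchor-away yeast, grown to mid-log phase in glucose medium. Their labelled genotype is MATa with the alleles his3D1, leu2D0, ura3D0 and tor1D1, a deletion (fpr1D) and the fusion RPL13-2xFKBP12-NATMX6, and the 0 min samples carry all of these too. Anchor-away uses rapamycin to tether a tagged protein to FKBP12 on Rpl13, which leaves the nucleus with new ribosomal subunits, and the genotype label names no tagged RNAPII subunit. Samples were taken 0, 20, 40 and 60 min after rapamycin at 1 ug/mL, with Schizosaccharomyces pombe cells added at 25% as a spike-in, and the labels list 1 immunoprecipitated and 1 input library for each mark and time, 16 in all. No untreated time course stands beside the treated one, so time, rapamycin and loss of RNAPII cannot be told apart. Of the MATa-specific genes fixed as markers, the receptor gene STE2 was at percentile 80.7 of all genes in H3K4me3 and 85.3 in H3K36me3 at 0 min, but the pheromone genes MFA1 and MFA2 were low, at 8.39 and 7.44 in H3K4me3 and 8.93 and 5.14 in H3K36me3. The MATalpha-specific receptor gene STE3 was at 1.69 in H3K4me3 and 1.21 in H3K36me3, and the other listed markers are not analysed here. These places are not corrected for gene length.

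In the lower part of glycolysis, aldolase and triose phosphate isomerase supply glyceraldehyde phosphate, which the following enzymes turn to pyruvate with a gain of ATP. In yeast growing on glucose these enzymes are among the most abundant proteins of the cell, and their genes are transcribed at very high rates under the regulators Rap1 and Gcr1. H3K4me3 is laid down by Set1 in the COMPASS complex near the start of transcribed genes, and H3K36me3 by Set2, which travels with elongating RNAPII, along gene bodies. The comparison asks how each mark at these genes differs with time after rapamycin.

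Values are the authors' deposited signal per gene on a linear scale, with 1 library per mark and time, so no error, interval or test can be given, and every difference below is a description of those libraries. The depth behind them is unknown. Changes are log2 of the later over the earlier level after adding 1% of the mark's median 0 min level, which is 0.0491 for H3K4me3 and 0.0108 for H3K36me3. The median gene is the median over genes whose mean level over the 4 times was at least 25% of the typical mean, 4826 for H3K4me3 and 4861 for H3K36me3. Of the 10 genes, 9 passed this filter in both marks and TDH1 passed it in neither, but it is kept in all counts and medians of the set. Whether levels were divided by gene length is not stated, so ratios of levels are given only between genes of equal annotated length. Ranks and percentiles place a gene among genes of other lengths, and are given to follow its place over time, not as a measure of how strongly it is marked relative to them. The H3K36me3 level at 0 min and gene length had a Spearman's rho of 0.221 across 5115 genes, and the H3K4me3 level one of 0.230.

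In the RefSeq gene table of R64, which is sacCer3, the 10 genes lie on 7 chromosomes, and none overlaps another gene annotated there. FBA1 is on chromosome XI at 326408 to 327487 and GPM1 on the same chromosome at 163642 to 164385. TDH1 and TDH2 are on chromosome X, at 338271 to 339269 and 453683 to 454681, while TDH3 is on chromosome VII at 882812 to 883810. ENO1 is also on chromosome VII, at 1000927 to 1002240, and ENO2 on chromosome VIII at 451327 to 452640. TPI1 is on chromosome IV at 555726 to 556472, PGK1 on chromosome III at 137746 to 138996 and CDC19 on chromosome I at 71786 to 73288. All are annotated as protein-coding.

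FBA1 encodes fructose bisphosphate aldolase, which splits the sugar into a pair of triose phosphates. Its H3K4me3 signal was 6.83 at 0 min, 7.33 at 20 min, 8.82 at 40 min and 8.29 at 60 min. H3K36me3 signal at the gene was 3.78, 2.78, 3.52 and 3.60 at the same times. The H3K4me3 level was thus above its 0 min value at every later time, and the H3K36me3 level dipped at 20 min and was then close to its start. The log2 change at 60 min was 0.28 in H3K4me3 and -0.07 in H3K36me3, which is 0.46 and 0.58 above the median gene. In H3K36me3 FBA1 ranked 3 from the highest of 5218 genes at 60 min, against 92 at 0 min, and in H3K4me3 it ranked 10 at 60 min, against 340 at 0 min.

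TPI1 encodes triose phosphate isomerase, which interconverts the products of aldolase. It had H3K4me3 signal of 5.51, 4.70, 5.91 and 4.94 over the 4 times, with no steady direction. Its H3K36me3 signal was 2.41, 1.76, 1.98 and 2.05, lowest at 20 min and higher at each time after. At 60 min the change was -0.15 in H3K4me3, 0.03 above the median gene, and -0.23 in H3K36me3, 0.41 above it.

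The 3 TDH genes encode isoforms of glyceraldehyde phosphate dehydrogenase, of which Tdh3 is the main one in cells growing on glucose and Tdh1 is made mostly when growth stops. They share an annotated length of 999 bases, so their levels can be set side by side, but near-identical copies can share reads, and how such reads were placed is not stated, so the values of these 3 genes are uncertain. TDH3 had H3K4me3 signal of 4.68 at 0 min, 5.24 at 20 min, 6.61 at 40 min and 6.38 at 60 min. Its H3K36me3 signal was 1.92, 1.73, 2.82 and 2.34. After a slightly lower value at 20 min, the H3K36me3 level was above its start at 40 and 60 min, alone among the 10 genes as deposited. The changes at 60 min were 0.44 in H3K4me3 and 0.29 in H3K36me3, or 0.63 and 0.93 above the median gene. Both marks were higher at 60 than at 0 min at TDH3, as they were at 1.35% of 4657 genes past both filters.

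TDH2 differed from this. H3K4me3 signal there was 4.90, 4.19, 4.63 and 4.04, and H3K36me3 signal was 1.75, 1.20, 0.948 and 1.02. It was below its 0 min level in both marks at all 3 later times, and its changes at 60 min were -0.27 in H3K4me3 and -0.76 in H3K36me3. The H3K36me3 level of TDH3 was 1.10 times that of TDH2 at 0 min, and 1.44, 2.97 and 2.29 times at 20, 40 and 60 min. In H3K4me3 the same ratio was 0.955 at 0 min and 1.25, 1.43 and 1.58 at the later times. The pair were thus close in both marks at 0 min and apart from 20 min on, and a scale factor per library leaves these ratios as they are.

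TDH1 had lower levels of both marks than TDH2 and TDH3. Its H3K4me3 signal was 0.497, 0.497, 0.529 and 0.436, and its H3K36me3 signal was 0.303, 0.113, 0.143 and 0.133. TDH3 had 14.6 times the H3K4me3 of TDH1 at 60 min and 9.41 times at 0 min. In H3K36me3 it had 17.5 times the level of TDH1 at 60 min and 6.34 times at 0 min. The H3K36me3 change of TDH1 at 60 min was -1.12, the lowest of the 10 genes, and -0.77 with a pseudocount of 10% in place of 1%. Its level at 0 min was at percentile 8.51 of all genes, where small differences in signal give large changes.

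PGK1 encodes phosphoglycerate kinase, which makes the first ATP of the pathway. It had H3K4me3 signal of 5.14, 4.70, 5.39 and 4.66, and H3K36me3 signal of 2.20, 1.66, 1.91 and 1.54. Its changes at 60 min, -0.14 in H3K4me3 and -0.51 in H3K36me3, were near the median gene, at 0.04 and 0.13 above it. GPM1 encodes phosphoglycerate mutase, which moves the phosphate within the molecule. Its H3K4me3 signal was 5.10, 4.81, 5.22 and 4.85, nearly level in time. H3K36me3 signal at GPM1 was 2.71, 1.46, 1.59 and 1.75, so the lowest value came at 20 min, a change of -0.89, and the change at 60 min was -0.63, or 0.02 above the median gene.

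ENO1 and ENO2 encode enolase, with Eno2 the main form on glucose. Both are annotated at 1314 bases, and as near-identical copies their values are uncertain in the way of the TDH genes. ENO2 had H3K4me3 signal of 6.35, 5.33, 6.87 and 6.38 and H3K36me3 signal of 2.94, 2.56, 2.46 and 2.80. At 60 min it was within 0.01 of its start in H3K4me3 and at -0.07 in H3K36me3, which is 0.57 above the median gene. ENO1 had H3K4me3 signal of 1.72, 1.84, 1.84 and 1.67 and H3K36me3 signal of 0.537, 0.396, 0.399 and 0.428. Its changes at 60 min were -0.05 and -0.32. The level of ENO2 was 3.69, 2.90, 3.74 and 3.83 times that of ENO1 in H3K4me3 at the 4 times, and 5.48, 6.47, 6.17 and 6.54 times in H3K36me3. Unlike TDH3 and TDH2, the enolase genes were already apart at 0 min.

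CDC19 encodes pyruvate kinase, the last step and the second to make ATP. Its H3K4me3 signal was 7.99, 8.15, 7.86 and 6.70, and its H3K36me3 signal was 3.72, 2.83, 2.89 and 2.16. In contrast to FBA1, which had a similar H3K36me3 change at 20 min (-0.39 for CDC19 and -0.44 for FBA1), CDC19 was lowest at 60 min in both marks. The changes at 60 min were -0.25 in H3K4me3 and -0.78 in H3K36me3, or -0.07 and -0.13 relative to the median gene. Among the 8 genes other than TDH1 and TDH2, it was the single one below the median gene in either mark at 60 min.

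**Figure D1:**
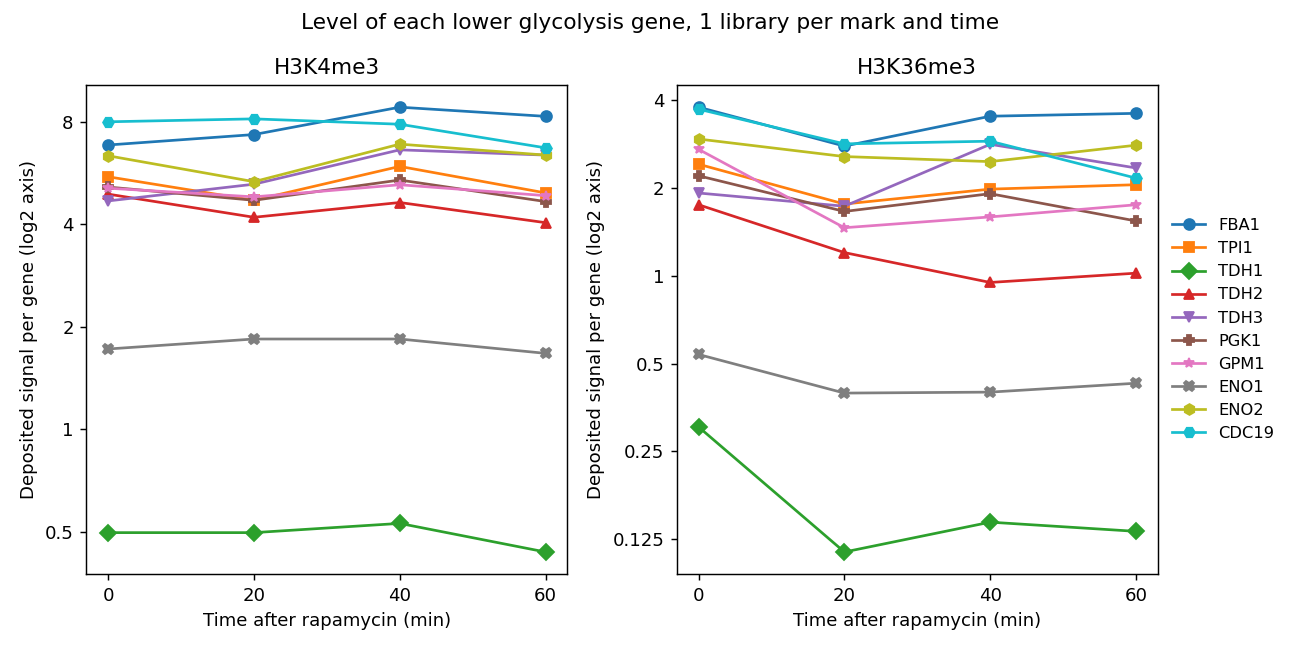
Deposited signal per gene (log2 axis, no unit given by the authors) of H3K4me3, left, and H3K36me3, right, against time after rapamycin in min, with 1 line per gene and 1 library per point. TDH1 lies under TDH2 and TDH3, and ENO1 under ENO2, in both marks, and TDH3 lies beside TDH2 at 0 min and above it at 60 min.

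The set as a whole was then read against all genes, with the counts as deposited first. At 20 min all 10 had less H3K36me3 than at 0 min, against 88.4% of all genes, and 8 were at least 1.3-fold lower, all but TDH3 and ENO2, against 54.0%. H3K36me3 was lower at 60 than at 0 min at 9 of the 10 genes, against 95.2% of all genes, so that direction is shared with the genome. These 9 were also lower than at 0 min at both 20 and 40 min, a course shared by 79.6% of all genes, and TDH3 was the 1 gene of the set with more H3K36me3 at 60 than at 0 min, against 4.79%. At least 1.3-fold lower were 5 of them, TDH1, TDH2, PGK1, GPM1 and CDC19, against 76.2% of all genes. The median change of the set was -0.44 at 20 min, -0.32 at 40 min and -0.42 at 60 min, against -0.41, -0.36 and -0.65 for the median gene. The set therefore stood with the median gene at 20 and 40 min, 0.02 below it and 0.04 above it, and 0.23 above it at 60 min. Without the TDH and ENO genes, whose values are uncertain, the distance at 60 min was 0.13. Changes that exceeded that of the median gene by at least 1.3-fold (0.38 on the log2 scale) were found at 60 min for FBA1, TPI1, TDH3 and ENO2, 4 of 10 against 16.0% of all genes, and ENO1 was just short of this at 0.33. At 40 min TDH3 alone was past it, against 14.5% of all genes, and at 20 min 0 of 10 were, against 13.5%. Among genes in the highest 20% by 0 min H3K36me3 level, the median change at 60 min was -0.79, lower than that of the median gene. That group included 7 of the 10 genes, all but TDH1, TDH2 and ENO1. The median of all 10 was 0.37 above it, which is not a comparison at matched level.

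These directions over 0 min depend on the scale of each library. Scaling each library to the same total moved the median gene at 60 min up by 0.66 in H3K36me3 and 0.17 in H3K4me3, and setting the 5% of genes with the lowest mean level equal moved it up by 0.60 and 0.30. With equal totals, 3 of the 10 genes were lower than at 0 min in H3K36me3 at 60 min, against 48.0% of all genes, and with the lowest 5% set equal 4 were, against 54.8%. TDH3 was higher than at 0 min in both marks at 60 min under equal totals and under the lowest 5% set equal, with H3K36me3 changes of 0.96 and 0.90 and H3K4me3 changes of 0.62 and 0.74.

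**Figure D2:**
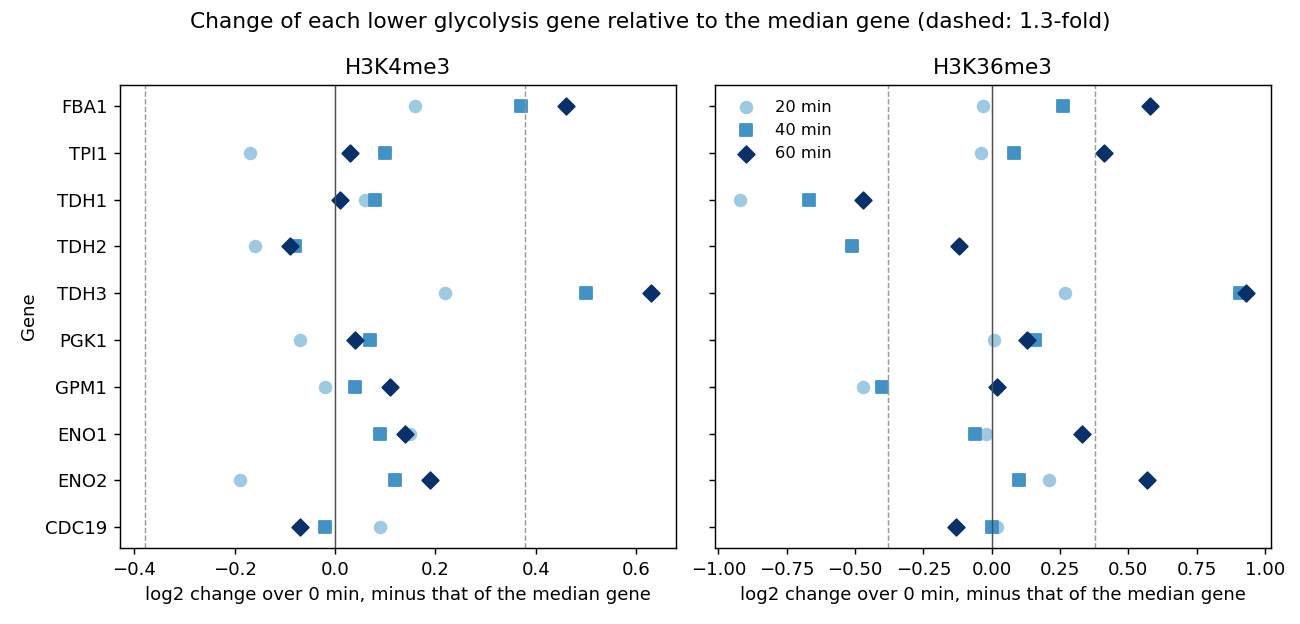
Log2 change over 0 min of each gene minus that of the median gene, for H3K4me3, left, and H3K36me3, right, at 20, 40 and 60 min (the shade of the marker). Dashed lines mark 1.3-fold on either side of the median gene, and the 2 panels have axes of different width. At 60 min TDH3 and FBA1 lie past the upper line in both marks, and TPI1 and ENO2 in H3K36me3, while the 20 and 60 min points of TDH2 coincide in H3K36me3.

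The late step set the genes apart from the genome more than the early one, and it uses no 0 min library. From 20 to 60 min H3K36me3 was higher at FBA1, TPI1, TDH1, TDH3, GPM1, ENO1 and ENO2, 7 of 10 against 20.6% of all genes. The log2 change over this step was 0.43 for TDH3, 0.37 for FBA1, 0.26 for GPM1, 0.22 for TPI1 and 0.21 for TDH1. It was 0.13 for ENO2 and 0.11 for ENO1, and -0.11 for PGK1, -0.23 for TDH2 and -0.39 for CDC19. The median of the set was 0.17, against -0.23 for the median gene and -0.18 for the genes highest at 0 min. At least 1.3-fold above the median gene in this step were 5 of 10, FBA1, TPI1, TDH1, TDH3 and GPM1, against 9.44% of all genes. GPM1 and TDH1 were also the genes with the lowest changes at 20 min, -0.89 and -1.33, and the single 20 min library is shared by all of these values.

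Between 40 and 60 min, which leaves out the 20 min library as well, H3K36me3 was higher at 60 min at 6 of 10 genes, FBA1, TPI1, TDH2, GPM1, ENO1 and ENO2, against 10.9% of all genes. The median of the set was 0.04, and that of all genes -0.28. From 20 to 40 min 8 of 10 were higher, against 58.2%. TDH3, highest at 40 min, differed by -0.27 over this step, PGK1 by -0.32 and CDC19 by -0.42. In the comparison of 60 with 20 min, the count of higher genes was 8 of 10 with equal library totals, against 46.9% of all genes, and 9 of 10 with the lowest 5% set equal, against 67.4%. The distance of the set's median from the median gene was 0.40, 0.40 and 0.39 under the 3 scales. It could hardly differ, since a factor per library moves the set and the median gene alike. The shared 60 min library enters both steps.

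**Figure D3:**
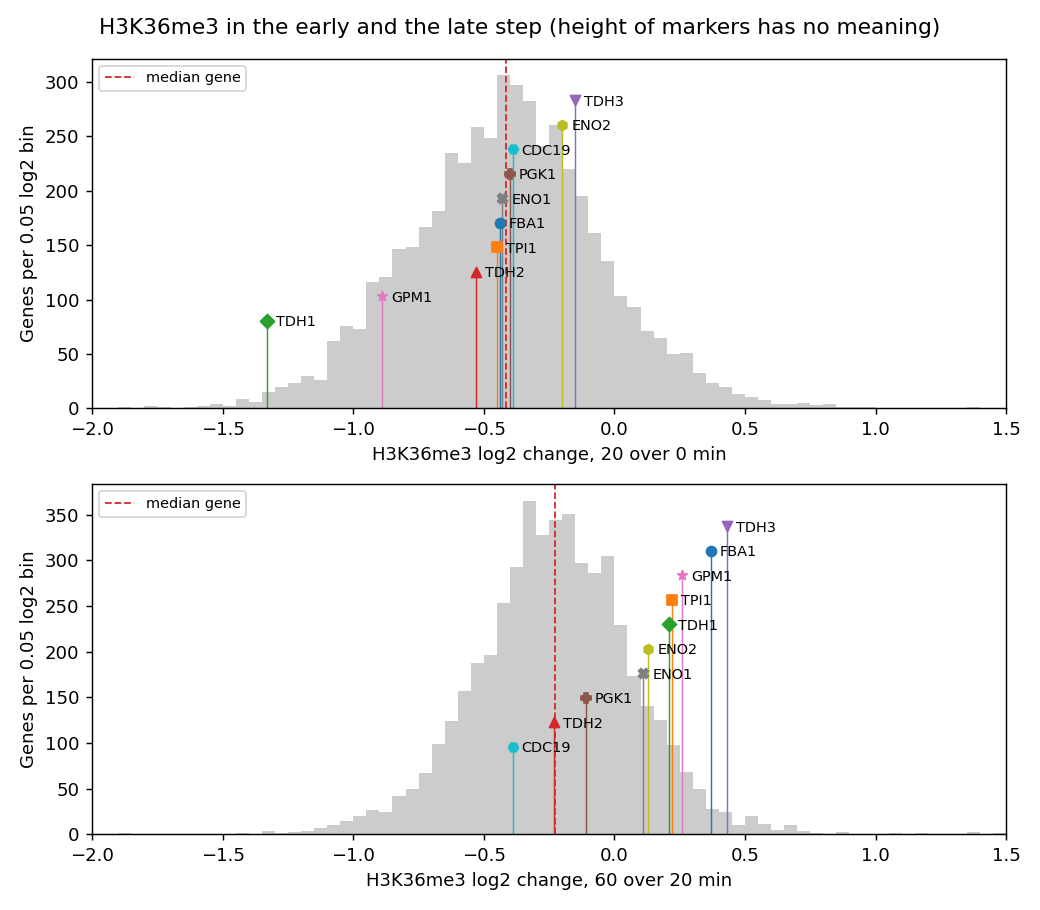
Histograms of the H3K36me3 log2 change over all genes past the filter, for 20 over 0 min (top) and 60 over 20 min (bottom), with the 10 genes marked and the median gene as a dashed line. In the top panel the genes lie on both sides of the median gene, and in the bottom panel 7 lie above 0, with CDC19 farthest to the left. Outside the horizontal range lie 1 gene in the top panel and 2 in the bottom panel.

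H3K4me3 differed less between times. Fewer of the set were at least 1.3-fold above the median gene at 60 min than in H3K36me3. So were fewer of all genes, 1.72% against 16.0% in H3K36me3. Over all genes the quartiles of the 60 min change were -0.28 and -0.08 in H3K4me3, and -0.89 and -0.39 in H3K36me3. H3K4me3 was higher at 60 than at 0 min at FBA1, TDH3 and ENO2, 3 of 10 against 11.3% of all genes. TDH3 was higher by at least 1.3-fold, against 0.808%, and none was at least 1.3-fold lower, against 10.5%. FBA1 and TDH3 were at least 1.3-fold above the median gene in change, 2 of 10 against 1.72% of all genes. The set's median change was -0.04 at 20 min, 0.08 at 40 min and -0.11 at 60 min, against -0.06, -0.0024 and -0.18 for the median gene, distances of 0.02, 0.09 and 0.08. From 40 to 60 min all 10 were lower, as were 96.4% of all genes, with differences of -0.05 for TDH3 to -0.25 for TPI1 and TDH1. With equal totals 7 of the 10 genes were higher than at 0 min at 60 min, against 46.9% of all genes, and with the lowest 5% set equal all 10 were, against 77.2%. FBA1 and TDH3 were above their 0 min H3K4me3 level at all 3 later times as deposited, 2 of 10 against 7.07% of all genes, and TDH2 was below it at all 3, 1 of 10 against 41.0%. At 40 min 8 of 10 were above their 0 min level, against 49.3%, and from 20 to 60 min 5 of 10 were higher, against 22.4%.

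A gene's place among all genes of a column does not depend on the scale of that column. In H3K36me3 TDH3 was at percentile 80.7, 90.6, 98.7 and 98.6 at the 4 times, and TPI1 at 89.5, 91.0, 93.3 and 97.2. ENO2 was at 94.9, 98.7, 97.3 and 99.6, and CDC19 at 98.2, 99.3, 98.9 and 97.8. GPM1 was at 93.0, 82.8, 85.0 and 94.4, so it ended where it began after a lower place at 20 and 40 min. At or above percentile 90 were 4 of the 10 genes at 0 min, 5 at 20 min, 6 at 40 min and 7 at 60 min. In H3K4me3 the largest difference in place was that of TDH3, at percentile 43.8, 66.0, 88.8 and 94.2, while CDC19 was at 99.2, 99.2, 98.1 and 96.3. In H3K36me3 the places of TDH2, 76.3, 72.6, 55.9 and 72.0, were lowest at 40 min, the time at which those of TDH3 were highest.

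**Figure D4:**
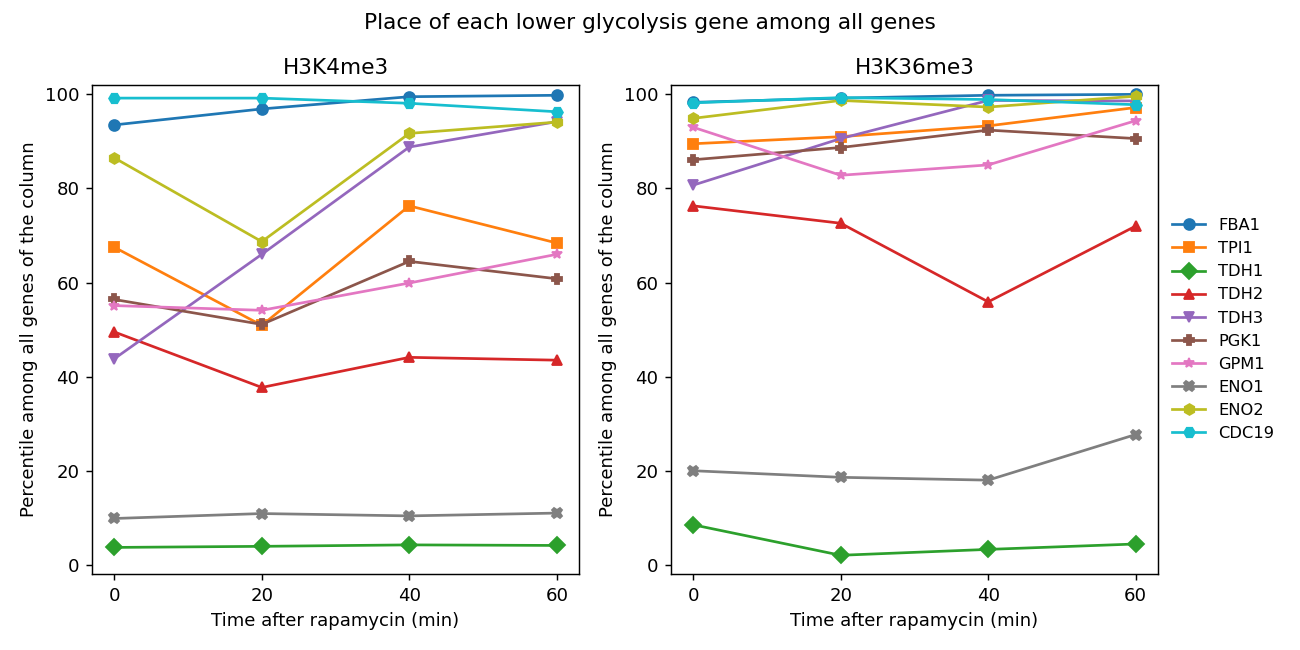
Percentile of each gene among the 5218 genes of the same column, for H3K4me3 (left) and H3K36me3 (right), against time after rapamycin in min. TDH3 climbs in both panels, 7 genes stand at or above percentile 90 in H3K36me3 at 60 min, and TDH1 and ENO1 stay in the lower part of both panels.

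Within the set, genes with higher H3K4me3 changes at 60 min tended to have higher H3K36me3 changes. TDH3, FBA1 and ENO2 had the 3 highest changes in both marks. Spearman's rho between the changes of the 2 marks was 0.867 over the 10 genes, 0.867 over the 9 past both filters, and 0.181 over 4657 genes past both filters. Without TDH3 and FBA1, left out after their values were seen, it was 0.738 over 8 genes. It was not computed without the TDH and ENO genes, whose values are uncertain. These are descriptions over genes that share the same few libraries, and a handful of genes gives an imprecise value. At 60 min 7 of the 10 genes had changes above the median gene in both marks, against 27.7% of all genes, the exceptions being TDH1, TDH2 and CDC19.

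**Figure D5:**
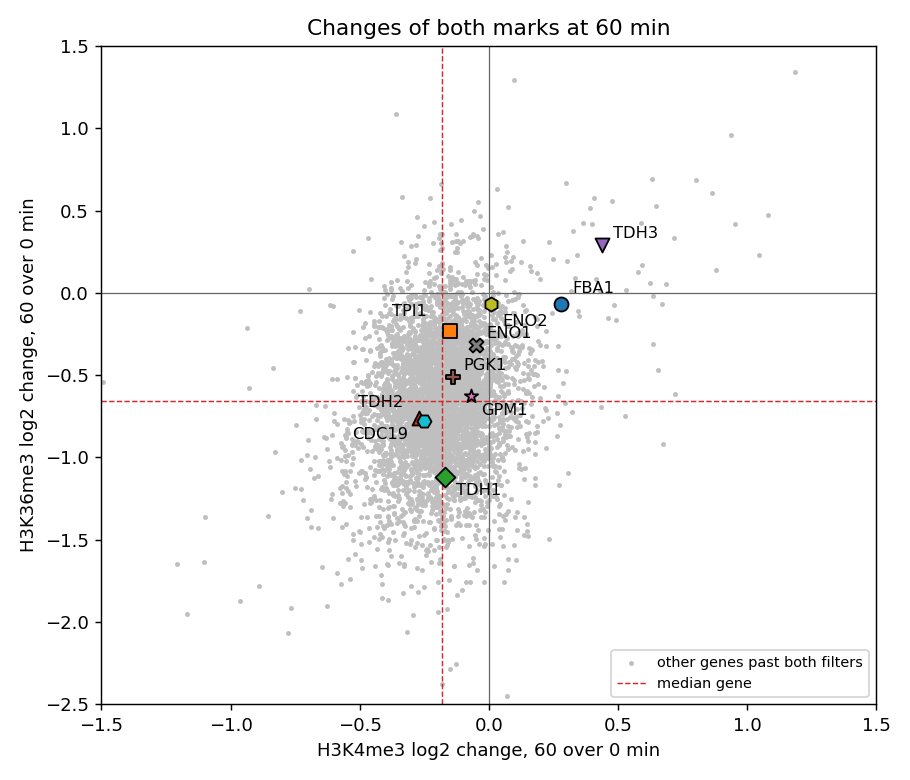
H3K36me3 log2 change against H3K4me3 log2 change at 60 over 0 min, as deposited, for the 10 genes (large markers) and the other genes past both filters (grey), with the median gene as dashed lines. TDH3 is the single one of the 10 above 0 in both marks, FBA1 and ENO2 lie just under 0 in H3K36me3, and 4 genes lie outside the axes.

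The genes next to the glycolysis genes were read to see whether their neighbourhoods differed in the same way. Of the nearest annotated neighbours on either side, 15 had values and 13 passed the filter in each mark. None of these was a neighbour of ENO2. At 60 min 0 of 13 had an H3K36me3 change at least 1.3-fold above the median gene, against 16.0% of all genes, and 0 of 13 an H3K4me3 change of that kind, against 1.72%. In H3K36me3 5 of 13 were above the median gene. Among them PDX1, MHO1, ADP1 and MPE1, at 0.36, 0.34, 0.31 and 0.30 above it, were just short of 1.3-fold (0.38). The median H3K36me3 change of the neighbours was -0.72, with values of -1.45 to -0.29. HIP1, an amino acid permease gene 580 bases from TDH3 on the other strand, was at -1.03 in H3K36me3 and -0.40 in H3K4me3. PDX1, a subunit gene of pyruvate dehydrogenase on the other side of TDH3, had the highest H3K36me3 change of the neighbours at -0.29. Next to FBA1, MPE1 of the mRNA 3' end processing machinery was at -0.35, and BLI1, below the filter, at -1.20. CYC3, which encodes the enzyme that attaches heme to cytochrome c and lies next to CDC19, combined the highest H3K4me3 change of the neighbours, 0.15, with the lowest H3K36me3 change, -1.45.

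The other neighbours past the H3K36me3 filter lay between these. VMS1 and DET1 beside TPI1 were at -0.72 and -0.67, and IRC8 beside TDH1 at -0.42. MHO1 and the sulfate assimilation gene MET3, on either side of TDH2, were at -0.31 and -1.16. Beside PGK1, the transporter gene ADP1 was at -0.34 and the DNA polymerase gene POL4, below the filter in H3K4me3, at -0.78. Flanking ENO1 were the proteasome gene PUP2 at -0.95 and the coenzyme Q synthesis gene COQ6 at -1.39. NNR2 beside GPM1 did not pass the H3K36me3 filter and was at -0.26 in H3K4me3.

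The upper steps of the pathway and hexose uptake were set beside the lower ones. Of 14 such genes 13 had values, and HXT6 is not analysed here. The 10 lower glycolysis genes and these 13 had like medians at 60 min in H3K36me3, -0.42 and -0.41. All 13 were lower than at 0 min as deposited, against 95.2% of all genes, so that direction is shared with the genome. From 20 to 60 min the median was 0.17 for the lower genes, with 7 of 10 higher, and -0.11 for the upper ones, with 5 of 13 higher. Of all genes 20.6% were higher in that step. From 40 to 60 min 6 of 10 lower genes and 3 of 13 upper ones were higher, against 10.9% of all genes. With 1 library per time the difference between the sets could not be tested. PGI1, the isomerase gene, had H3K36me3 of 2.78, 2.23, 1.73 and 1.43, the phosphofructokinase gene PFK1 2.47, 2.13, 2.02 and 1.63, and its partner PFK2 2.19, 1.64, 1.32 and 1.10. These enzymes act just before aldolase, and their genes had lower H3K36me3 at each successive time as deposited. HXT1 and PFK27 of the upper list had such a course too, so it was not limited to these genes. Of the 10 lower glycolysis genes 0 had such a course, against 28.3% of all genes. Relative to the median gene PGI1, PFK1 and PFK2 were at -0.31, 0.05 and -0.34 at 60 min. GLK1 of the upper list went the other way after 20 min, with H3K36me3 of 0.552, 0.284, 0.486 and 0.523. Its change from 20 to 60 min, 0.86, was the highest of the upper genes, and the highest of the lower genes was 0.43.

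In H3K4me3 the upper list had a median change of -0.03 at 60 min, and the 10 lower genes one of -0.11. Higher than at 0 min were 6 of 13 upper and 3 of 10 lower genes, against 11.3% of all genes. The upper list was widely spread. PGI1, PFK1 and PFK2 were at -0.56, -0.53 and -0.70 in H3K4me3 at 60 min, each below the lowest of the 10 genes, TDH2 at -0.27. HXT2, a hexose transporter gene, and the hexokinase gene HXK1 had the highest H3K4me3 changes of the upper list, both 0.64, and HXK1 did not pass the H3K4me3 filter. HXT2 was at -0.02 in H3K36me3, the highest of the list there.

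Downstream of pyruvate kinase, 8 pyruvate decarboxylase and alcohol dehydrogenase genes had a median H3K36me3 change of -0.37 at 60 min, 0.27 above the median gene. Of these, 4 of 8 were higher at 60 than at 20 min, against 20.6% of all genes. From 40 to 60 min 1 of 8 was higher, against 10.9%. The median over that step was -0.24, near the -0.28 of all genes. The decarboxylase gene PDC1 had H3K4me3 of 3.84, 5.61, 6.60 and 5.98, a change of 0.63, and H3K36me3 of 2.32, 1.91, 2.12 and 1.87, a change of -0.31. ADH1, the main alcohol dehydrogenase gene on glucose, had H3K36me3 of 4.13, 2.37, 2.67 and 2.19, a change of -0.91, and ADH4 the highest of the list, -0.15. PDC6, below the filter in both marks, had the lowest, -1.70. In H3K4me3 ADH5 was the lowest at -0.23, and ADH3 was at -0.10.

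Genes of the side branches and of regulation gave further values in H3K36me3 at 60 min. The 4 glycerol branch genes were all lower than at 0 min as deposited, against 95.2% of all genes. Their median was -0.80, from the dehydrogenase gene GPD2 at -1.83 to the phosphatase gene GPP2 at -0.74. Of these, 1 of 4 was higher at 60 than at 20 min, against 20.6% of all genes. The phosphatase gene GPP1 was at -0.76. The 6 regulator genes had a median of -0.89. From 20 to 60 min 1 of 6 was higher, against 20.6% of all genes, namely RAP1, which had a change of -0.34 over 0 min. GCR1, which encodes the activator of glycolytic genes, was at -1.03, GCR2 at -0.77 and ABF1 at -1.28. Relative to the median gene, the glycerol branch median was -0.15 and that of the regulators -0.24.

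The minor copies of the lower enzymes and the gluconeogenic genes were few, and their H3K36me3 was read over the same late steps. From 20 to 60 min 2 of 3 minor copies were higher, with a median of 0.32, and 2 of 3 gluconeogenic genes, with a median of 0.35. Of all genes 20.6% were higher in that step. GPM2, not past the filter, was 1 of these minor copies, and GPM3 was at -0.41. From 40 to 60 min 1 of 3 minor copies was higher, against 10.9% of all genes, with a median of -0.26, near the -0.28 of all genes. In that step 2 of 3 gluconeogenic genes were higher, with a median of 0.04. Of 6 minor copies 3 had values, and ERR1, ERR2 and ERR3 are not analysed here. PYK2, a second pyruvate kinase gene, had H3K36me3 of 0.478, 0.204, 0.311 and 0.257, a change of -0.87, and H3K4me3 of 2.49, 2.75, 2.82 and 2.51, a change of 0.02. GPM2, below the filter in both marks, was at -0.87 in H3K36me3, and GPM3 at -0.54. Of the gluconeogenesis genes, PCK1 is not analysed here, and the pyruvate carboxylase copies parted, with PYC1 at 0.55 and PYC2 at -1.32 in H3K36me3. FBP1, which reverses the phosphofructokinase step, was at 0.03.

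The genes whose courses lay nearest to the median course of the set were found among 4648 genes past both filters, over 6 log2 changes (20, 40 and 60 min in both marks), by straight-line distance. They were the methionine aminopeptidase gene MAP2 (0.0933), SRV2, which encodes an actin-binding protein (0.0989), the calcineurin subunit gene CNB1 (0.105), the lysine synthesis gene LYS9 (0.108), the farnesyl diphosphate synthase gene ERG20 (0.111) and the nucleotide precursor gene PRS1 (0.120). Over all of these genes the median distance was 0.592. Of the 10 genes themselves PGK1 (0.183), ENO1 (0.201) and TPI1 (0.269) lay closest to their own median, and TDH1 (1.34) and TDH3 (1.36) farthest from it. FBA1 (0.644), GPM1 (0.669) and TDH2 (0.724) were also above that median distance. LYS9 had H3K36me3 of 0.780, 0.565, 0.638 and 0.606, with its lowest value at 20 min.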

How the data were processed

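Per the labels, chromatin of S. cerevisiae was immunoprecipitated for H3K4me3 or H3K36me3 and sequenced. Bowtie2, SAMtools, bedtools and the builds sacCer3 and ASM294v2 are named in the submitters' processing notes. Versions were not given in the sources used here. The authors deposited 1 table of linear signal per gene. Division by input, length or spike-in is not stated, and the headings name no library type, so columns were read as immunoprecipitated libraries. Below the headings, 5222 lines held 5218 genes with values, 3 blank lines and 1 gene without values, and 5115 genes matched the R64 table.

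Changes, medians, ranks and counts were computed with Python 3.11.15, pandas 2.3.3 and numpy 2.4.6 and tested on simulated data. No test was run, since each mark and time has 1 library. The named genes were the 10 genes, the genes with the lowest and highest change and the highest 0 min level of each other list, nearest neighbours and nearest courses. GCR1, HXT1, PFK27 and GLK1 were named after their values were seen. The genes, lists and thresholds were chosen with earlier results of these data known. Alternatives covered pseudocount, filter, scaling, times, gene set and background. No sequence is shown.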

Additional observations from a re-analysis of the deposited data

How the results depend on the processing

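The changes over 0 min depend on the scale of each library and on the times compared, and the distance from the median gene on the times and on which genes are in the set. With equal library totals the set's median change at 60 min was 0.07 in H3K4me3 and 0.25 in H3K36me3, PGK1 and GPM1 turned to 0.16 and 0.05 in H3K36me3, and 1 gene of the set was at least 1.3-fold lower in that mark. With the lowest 5% of genes set equal, the medians were 0.19 and 0.19, PGK1 was at 0.09, and again 1 gene was 1.3-fold lower. From 20 to 60 min the medians were -0.00040 in H3K4me3 and 0.17 in H3K36me3, the H3K36me3 distance from the median gene was 0.40, 1 gene was 1.3-fold lower in H3K36me3, 1 was 1.3-fold above the median gene in H3K4me3, and TDH1 and GPM1 turned to 0.21 and 0.26 in H3K36me3. From 0 to 40 min the H3K4me3 median was 0.08, the H3K36me3 distance 0.04, and 1 gene in each mark was 1.3-fold above the median gene. Without the TDH and ENO genes, which leaves 5, 1 in H3K4me3 and 2 in H3K36me3 were 1.3-fold above it and 3 were 1.3-fold lower in H3K36me3, as fewer genes were counted, and the H3K36me3 distance at 60 min was 0.13 in place of 0.23. Without TDH1 that distance was 0.33. Against the 20% of genes highest at 0 min, the H3K36me3 distance was 0.37. Of 88 recomputed set values, 69 differed by no more than 0.1, or 1.5 times for counts. Many of these could hardly differ, so the tally is not a measure of stability. A factor per library moves the set and the median gene alike, and a change of filter or background leaves the set's own median as it was. No gene of the set overlapped another, so that alternative changed nothing. The cause of these differences was not tested. No paired analysis was possible because each group has 1 library. The set with TDH1 left out, and the late steps under other scales, were added after seeing the data. Depth is unknown, so no limit from counting can be given.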
